A study of Rousettus aegyptiacus with 32 samples.

Results

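Premotor cortex (PreM) of the Egyptian fruit bat, Rousettus aegyptiacus, was compared with primary motor cortex (M1) by open chromatin. The comparison takes 6 of the 20 ATAC-seq libraries in a series of 32 samples on vocal learning. PreM was sampled once in bat 1 and once in bat 3, and M1 was sampled in the same animals as its orofacial part (ofM1) and its wing part (wM1), giving 2 PreM and 4 M1 libraries. Both bats were adult males with no treatment named, and all 6 libraries were made from nuclei of cryopreserved bulk tissue. The libraries come from 2 animals, and ofM1 and wM1 of 1 bat are not independent of each other. In bulk tissue, a site open in fewer cells and a site less open per cell cannot be told apart.

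Primary motor cortex drives movement through projections to the brainstem and spinal cord, and premotor cortex lies upstream of it in the planning of movement. Both areas share the same main classes of excitatory and inhibitory neurons and glia, and both project to the striatum, which holds a different set of neurons. ATAC-seq marks DNA that a transposase can reach, mainly promoters and enhancers, and enhancers differ more between cell types than promoters do.

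The 6 deposited lists held 300000 rows each, which collapsed to 196988 and 175497 separate intervals in PreM of bats 1 and 3, against 155151 to 194467 in M1. Each interval carries the caller's fold enrichment over background and its -log10 p. Intervals were ranked by -log10 p within a library, since these values were not scaled between libraries: at rank 50000 it was 44.2 and 41.1 in PreM and 29.99 to 74.9 in M1. A peak among the 50000 strongest of its library is called strong. Read depth does not go with the lists and is unknown here.

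No region was strong on 1 side and without a peak on the other, in PreM against M1 or in any other division of the 6 libraries that takes 1 library per bat. Intervals of the 6 lists that overlapped by at least 1 base were merged into 260974 regions, and 109785 of these (42.1%) held a peak in all 6 libraries. These shared regions were broad (median width 968 bases), while the 66492 regions found in 1 library were narrow (217 bases). Counts of regions strong in both PreM libraries and without a peak in M1, and of the converse, were 0, and they were 0 for each of the 8 other choices of 1 library per bat. A count of this kind therefore gave no difference between the areas to compare.

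Differences in presence lay among weak peaks. A peak of any rank was then counted as present. Both PreM libraries and no M1 library had a peak at 2575 regions, which is 0.987% of all regions. All 4 M1 libraries and neither PreM library had a peak at 1084 (0.415%). The 2575 regions were narrow, at a median of 373 bases, and their median rank was 149591. Absence here depends on where a list ends. The list of ofM1 of bat 3 ends at 155151 intervals, with a lowest -log10 p of 8.22. That of PreM of bat 1 ends at 196988 intervals and 4.78. What part list length has in these counts was not tested. The 8 other choices gave 577 to 1370 regions in the chosen pair only, so the PreM pair had the most (exact permutation within animals, 1-sided p = 0.111). With 9 possible choices, 0.111 is the smallest p this design allows, and no such test can pass 0.05. For the regions in M1 only, the other choices gave 323 to 1703, which includes the 1084 (exact 1-sided p = 0.444). With strong widened to the 100000 strongest, 23 regions were strong in both PreM libraries with no peak in M1, against 0 to 3 for the other choices.

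Regions strong in striatum and without a peak in secondary auditory cortex were found more often in PreM than in M1, in both bats. The striatum, made up of caudate and putamen, lies beneath the cortex and consists mainly of medium spiny neurons. A panel was taken from libraries outside the comparison: 4606 regions strong in all 4 caudate and putamen libraries and with no peak in secondary auditory cortex (2A) of either bat. Cerebellum, liver, muscle and testis were not used to choose the panel, so its regions may be open there too. In PreM, 4.28% of the panel (bat 1) and 5.28% (bat 3) had an interval among the 150000 strongest. In M1 the shares were 1.98% and 2.56% for ofM1 and 1.56% and 2.24% for wM1 of bats 1 and 3. Both PreM values lay above all 4 M1 values, which averaged 2.08 ± 0.422% (SD, n = 4). The difference was 2.51 percentage points within bat 1 and 2.88 within bat 3, against -1.62 to 0.966 for the other choices (exact permutation within animals, 2-sided p = 0.111, or 0.333 adjusted over 6 panels). Whether the PreM samples held some striatal tissue was not tested.

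Peaks of any rank were counted next, where the lists differ in length. The striatal share was then 10.01% and 8.58% in PreM of bats 1 and 3, and 3.10% to 5.23% in M1. These peaks were weak in PreM: among the panel regions present, the median rank was 157189 in bat 1 and 139775 in bat 3, with a median fold of 2.28 and 3.23. Among the 50000 strongest the share was 0.0651% and 0.130% in PreM, against 0 to 0.130% in M1, so that the difference did not extend to strong peaks. In 70 panel regions both PreM libraries had a peak and none of the M1 libraries did, against 3 to 20 for the 8 other choices. The converse held for 3 regions, against 0 to 6.

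The difference was largest in the regions strongest in striatum. In the 1152 panel regions with the best ranks there (a weakest striatal rank of 2766 to 23855), the share was 7.12% and 6.25% in PreM and 1.04% to 2.60% in M1. In bat 1 this was 4.69 times the mean of its M1 libraries, and in bat 3 it was 3.13 times. In the next 1151 regions the PreM share was 3.39% in bat 1 and 5.47% in bat 3, or 2.05 and 2.03 times the M1 mean. In the 1151 after them it was 3.21% and 5.21%, or 1.76 and 2.35 times. In the 1152 regions with the poorest ranks (42509 to 50000), the share was 3.39% and 4.17% in PreM and 1.65% to 2.69% in M1, or 1.62 and 1.55 times the M1 mean of the same bat. The PreM share thus fell from group to group in bat 3, and in bat 1 it was close to level after the best group. The M1 mean was not highest in the best regions, at 1.76% there and 2.39% in the poorest.

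**Figure D1:**
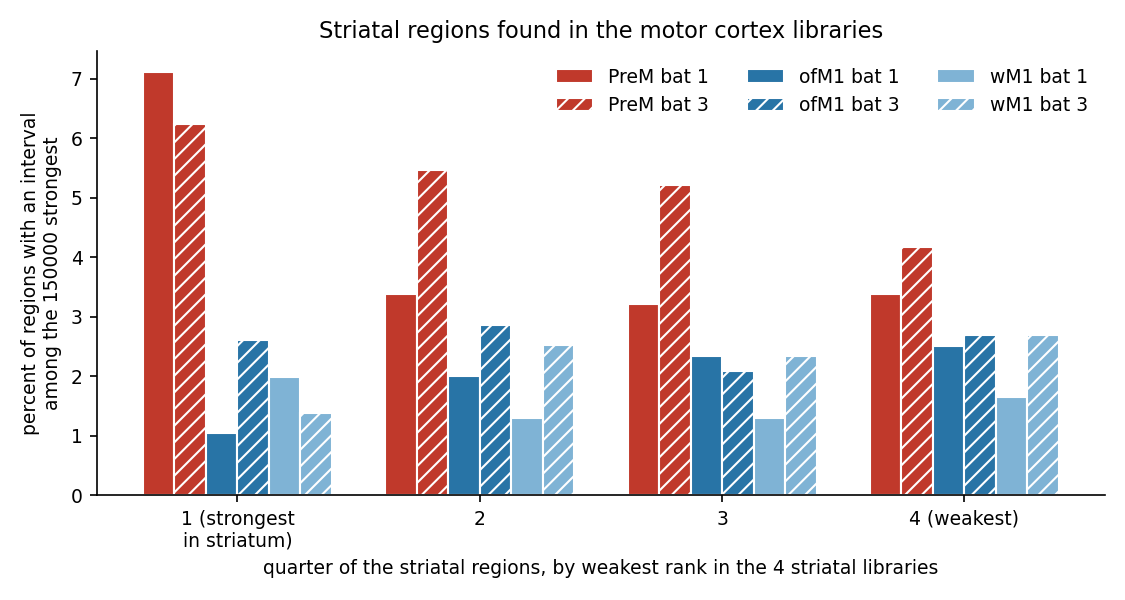
Percent of striatal regions with an interval among the 150000 strongest (vertical axis) in the 2 PreM and 4 M1 libraries, by how strong the regions are in striatum (horizontal axis, 1151 or 1152 regions per group). The PreM bars stand above the M1 bars in all 4 groups, most in the regions strongest in striatum (7.12% and 6.25% in PreM, 1.04% to 2.60% in M1).

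Examples of the striatal regions with the best PreM ranks and no peak in M1 were picked after their values were seen. The best by its weaker PreM rank was on scaffold NW_023416290.1, from 13553627 to 13554451. It ranked 95278 and 92793 in PreM of bats 1 and 3 and 32785 to 40578 in the striatal libraries. On scaffold NW_023416295.1, the region from 73041502 to 73042311 ranked 108655 and 104983 in PreM of bats 1 and 3, with 3.06- and 4.38-fold enrichment. It ranked 2337 and 3611 in caudate and 2692 and 5652 in putamen, with 16.3- to 20.5-fold enrichment. On scaffold NW_023416290.1, the region from 32791305 to 32792397 ranked 106178 and 87201 in PreM, against 9124 and 6321 in caudate and 20385 and 30942 in putamen. A peak in both PreM libraries, a strong one in striatum and none in ofM1 or wM1 were conditions of the choice. The PreM peaks of all of these regions were weak.

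Cerebellar regions were also found more often in PreM within each bat. They were strong in both cerebellar libraries and had no peak in 2A or striatum. The differences were smaller than for striatum, but the striatal panel left out only regions with a peak in 2A. The sizes are therefore not compared on like panels. Of 5323 cerebellar regions, 2.09% and 2.71% had an interval among the 150000 strongest in PreM of bats 1 and 3, against 1.15% and 2.01% in ofM1 and 0.845% and 2.24% in wM1. At this limit the groups overlapped. The mean difference of 0.836 points was the largest of the 9 choices (exact 2-sided p = 0.111, or 0.333 adjusted over 6 panels). With peaks of any rank, the cerebellar share was 6.16% and 4.66% in PreM, against 3.95% and 2.24% in ofM1 and 3.44% and 3.48% in wM1. Both PreM values then lay above all 4 M1 values, by 2.14 points on average (exact 2-sided p = 0.111). Lists with peaks of any rank differ in length, with PreM of bat 1 the longest and ofM1 of bat 3 the shortest. The liver, muscle and testis panels did not separate PreM from M1. Their regions were strong in that tissue of both bats and had no peak in 2A, striatum or cerebellum. Liver (790 regions) was at 12.4% in PreM of bat 1, but ofM1 of bat 1 was at 9.49% and all 3 libraries of bat 3 lay between 1.14% and 1.39%. Muscle and testis panels differed by 0.506 and 0.237 points on average, with opposite signs in the 2 bats.

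Regions of auditory cortex and regions common to the brain were open in PreM and M1 alike. Of 3424 regions strong in both 2A libraries and without a peak in striatum, at least 99.9% were found in each of the 6 libraries. Their median rank was 30153 in PreM of bat 1 and 36867 in PreM of bat 3, and 32061 to 37290 in M1. PreM was thus ahead of ofM1 and wM1 in bat 1 and behind both in bat 3. All 18516 regions strong in every other brain library were found in all 6 libraries, with a median rank of 11013 and 9976 in PreM and 9916 to 10061 in M1.

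PreM and M1 also differed in which regions were strong. In all, 728 regions were strong in both PreM libraries and in none of M1, which is 1.25% of the 58302 regions strong in at least 2 libraries. The other choices gave 148 to 368, with 259 for the ofM1 pair and 148 for the wM1 pair (exact permutation, 1-sided p = 0.111). The converse, strong in all 4 M1 libraries and in neither PreM library, held for 447 regions (0.767%), against 59 to 378 for the other choices (exact 1-sided p = 0.111). PreM therefore gave the highest count of the 9 choices in both directions.

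**Figure D2:**
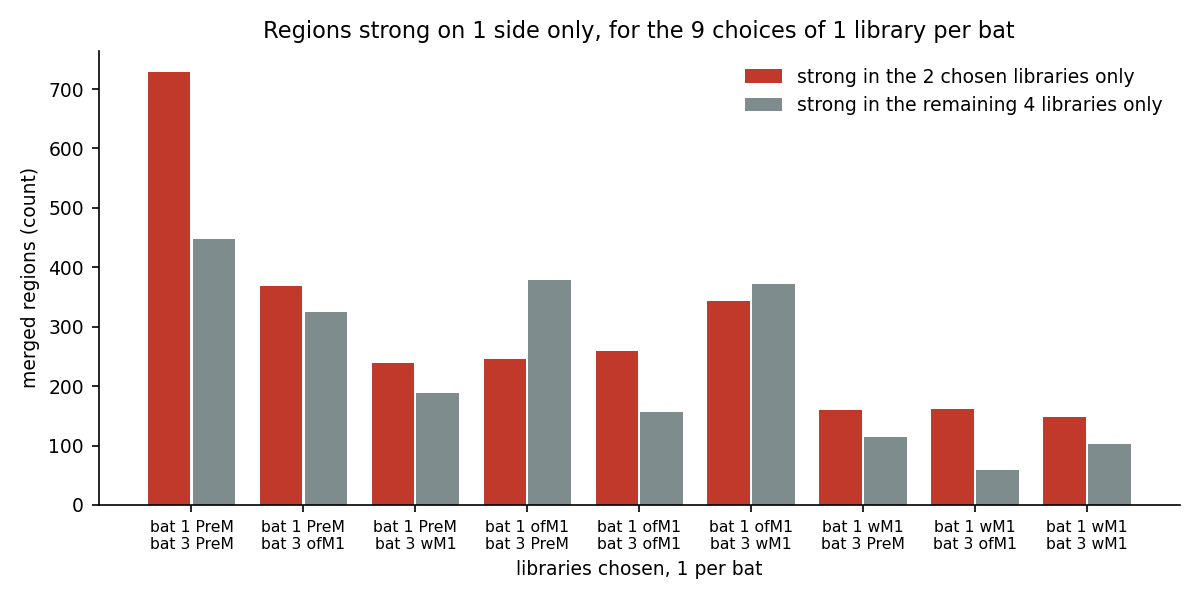
Number of merged regions strong in 2 chosen libraries and in none of the other 4 (red) or the converse (grey), for each choice of 1 library per bat. The PreM pair, at the left, has the highest bars of both kinds, with 728 and 447 regions.

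Most of these regions sat near the limit of 50000. In the 728 regions the median rank was 40331 and 42560 in PreM of bats 1 and 3, while the best M1 rank had a median of 55380. The best M1 rank was beyond 75000 in 46 of the 728 and beyond 100000 in 1. Fold enrichment had a median of 7.02 in PreM and 5.27 in M1. In the 447 regions the median rank was 58678 and 58123 in PreM and the best M1 rank had a median of 32397, with a median fold of 4.68 in PreM and 6.23 in M1. The 728 regions were narrower, at a median of 868 bases, against 1097 bases in the 447 and 1119 bases over all tested regions.

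The 728 regions were strong in other tissues less often than tested regions at large, as were the regions of the other choices. All 728 had a peak in 2A of bat 1 and 95.9% in 2A of bat 3, against 99.9% and 99.6% of all tested regions. Peaks of any rank were found at 57.8% to 61.8% of them in the striatal libraries, against 84.3% to 85.9% of all tested regions. In cerebellum of bats 1 and 3 the shares were 41.1% and 44.9%, against 71.4% and 74.5%.

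Striatum was strong, in all 4 of its libraries, at 130 of the 728 (17.9%), against 45.3% of all tested regions. That share was the highest of the 9 choices, the others giving 4.40% to 15.5%. Cerebellum was strong in both bats at 8.93%, within the 5.28% to 24.8% of the other choices and below the 44.9% of all tested regions. Muscle at 2.75% and testis at 2.20% were the lowest of the 9 choices, which otherwise ranged from 4.89% to 24.5% and from 2.51% to 11.9%. Over all tested regions these tissues were at 37.1% and 29.2%.

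Auditory cortex was strong in both bats at 12.2% of the 728 and 36.5% of the 447, against 66.5% of all tested regions. Both shares lay within those of the other choices, 3.21% to 26.7% and 13.8% to 60.8%. The 2 bats differed: 2A of bat 1 was strong at 54.1% of the 728 and 47.7% of the 447, and 2A of bat 3 at 17.0% and 72.3%.

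Regions strong in striatum were removed from the counts in turn. Without the regions strong in all 4 striatal libraries, 598 regions were strong in PreM and not in M1, against 134 to 322 for the other choices. Of the 2575 weak regions in PreM only, 140 (5.44%) were strong in all 4 striatal libraries, against 1.41% to 3.04% for the other choices. Leaving these out gave 2435 regions, against 563 to 1339. The PreM pair kept the highest count in both cases.

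No single region passed the test of rank between PreM and M1. Ranks were compared on a log2 scale with limma, with the sign set so that a positive value means a stronger peak in PreM. Of 58302 regions tested, 0 (0.0%) were higher and 0 (0.0%) lower in PreM at an adjusted p of 0.05. At an unadjusted p under 0.05 there were 1688 (2.90%), with 1089 higher and 599 lower, and 4574 (7.85%) with the animal as a block, 2335 higher and 2239 lower. With log2 fold enrichment in place of ranks, 1109 of 57574 regions (1.93%) had an unadjusted p under 0.05. They divided into 308 higher and 801 lower, about a median over all regions of -0.10. The balance of higher to lower thus depended on the scale. With the same fit on ranks, ofM1 against the other 2 areas gave 425 regions (0.73%) at an unadjusted p under 0.05 and wM1 gave 184 (0.32%). With the animal as a block they gave 1646 (2.82%) and 1038 (1.78%). Without the block, each share given here for an unadjusted p lay below the rate that this limit marks by chance.

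In 3915 regions (6.72%) both PreM ranks were ahead of all 4 M1 ranks, and in 3619 regions (6.21%) both were behind. Neither count was the highest of the 9 choices. PreM of bat 1 with ofM1 of bat 3 gave 4641 ahead and 4537 behind, and the ofM1 pair gave 2336 and 1994. The gaps were small, with a median of 0.18 ahead and 0.14 behind on the log2 scale. A gap of at least 2-fold in rank was found in 27 regions ahead in PreM, against 0 to 11 for the other choices (exact 1-sided p = 0.111), and in 3 regions behind, against 0 to 35 (exact 1-sided p = 0.444).

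The 12 regions with the widest gap ahead in PreM were 437 to 1608 bases wide on 9 scaffolds, with PreM ranks from 15785 to 48876 and gaps of 1.13 to 1.60 on the log2 scale. They were taken for their gap, so their ranks are a description, and none passed the test (adjusted p = 1.00 with limma, or 0.347 to 0.402 with the animal as a block). Of the 12, 7 were strong in some library outside motor cortex. In bats 1 and 3, 5 and 1 were strong in 2A, 2 and 2 in caudate, 3 and 2 in putamen, 1 and 1 in cerebellum, and 1 and 0 in muscle, with none in liver or testis. Over all tested regions, 77.7% and 79.1% were strong in 2A and 51.7% to 58.8% in the striatal libraries. No gene is named for any region, because the gene table used here places no gene on these scaffolds.

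The widest gap was on scaffold NW_023416309.1, from 26103957 to 26104836. The region ranked 35761 and 48876 in PreM of bats 1 and 3, with 6.85- and 7.71-fold enrichment. It ranked 161348 in ofM1 of bat 1, had no peak in ofM1 of bat 3 and ranked 148007 and 153899 in wM1, with 2.42- to 2.92-fold enrichment. It was strong in PreM and in no other library of any tissue, but 8 libraries outside motor cortex had a peak there. In bats 1 and 3 it ranked 78851 and 58008 in cerebellum, 77103 and 88845 in putamen and 104490 and 126009 in caudate. These ranks were ahead of those in M1. No other of the 728 regions lacked an M1 peak among the 100000 strongest.

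A second region, on scaffold NW_023416295.1 from 36264928 to 36266100, gave the smallest unadjusted p of the 12 without the animal as a block; with it, 2 of the others were smaller. It ranked 23965 and 20842 in PreM, 68294 and 86258 in ofM1 and 61630 and 68609 in wM1 of bats 1 and 3. The fitted difference was 1.66 on the log2 scale, with an SE of 0.34, and did not pass (limma adjusted p = 1.00). In PreM it was 8.67- and 12.1-fold enriched, against 4.61- to 6.44-fold in M1. Outside motor cortex, 8 libraries had a peak there, and it was strong in 1 of them, 2A of bat 1, at rank 32949. Caudate had no peak there, and putamen had a peak in bat 3 only, at rank 148078.

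A narrow site with a peak in few other libraries was also among them. On scaffold NW_023416307.1, the region from 13199779 to 13200215 is 437 bases wide and ranked 15785 and 21216 in PreM, against 58323 and 62690 in ofM1 and 48434 and 126291 in wM1. Of the 14 libraries of other tissues, 1 had a peak there, 2A of bat 1. By contrast, the region from 158829677 to 158830372 on scaffold NW_023416306.1 was a strong striatal site. It ranked 29611 and 33878 in PreM, 99769 and 94224 in ofM1 and 85772 and 161559 in wM1, and 3898 to 5553 in the 4 striatal libraries.

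**Figure D3:**
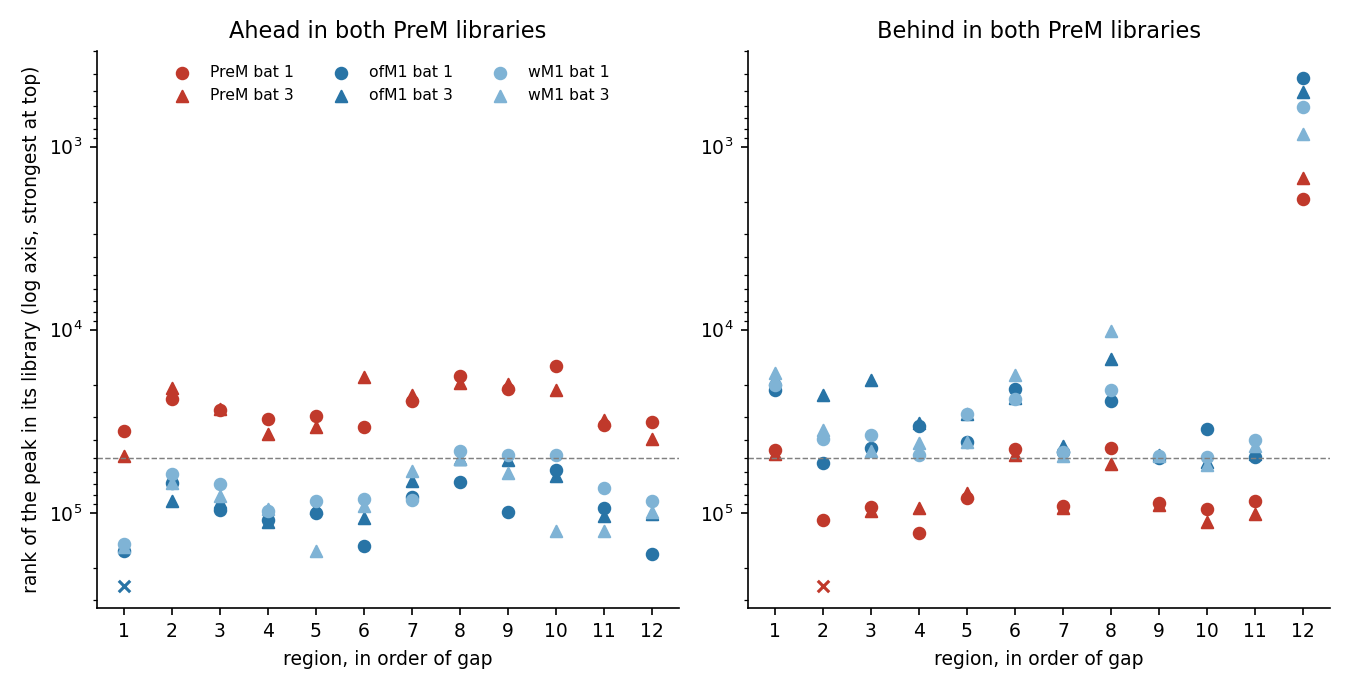
Rank of the peak in its library (log axis, strongest at the top) for the 12 regions most ahead (left) and most behind (right) in PreM, with PreM in red, ofM1 in dark blue and wM1 in light blue, circles for bat 1 and triangles for bat 3. Crosses at the foot mark no peak, and the dashed line marks rank 50000. On the left both PreM points lie above the 4 M1 points, and on the right below them, because the regions were chosen for it.

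The 12 regions with the widest gap behind in PreM had smaller gaps, of 0.80 to 1.08. Of these, 8 were strong in 2A of bat 1 and 10 in 2A of bat 3, near the 77.7% and 79.1% of all tested regions. On scaffold NW_023416311.1, the region from 78390109 to 78391435 had the widest gap. It ranked 45243 and 47478 in PreM of bats 1 and 3, against 21358 and 18644 in ofM1 and 19978 and 17198 in wM1. It was open in PreM too, at 5.55- and 6.37-fold, against 8.74- to 11.4-fold in M1.

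In 1 of the 12, a PreM library lacked a peak altogether. The region on scaffold NW_023416284.1 from 63757005 to 63758027 ranked 109822 in PreM of bat 1 and had no peak in PreM of bat 3, against 53216 and 22639 in ofM1 and 39447 and 35343 in wM1. Outside motor cortex it had a peak in both 2A libraries and in cerebellum of bat 3. The region on scaffold NW_023416308.1 from 67082091 to 67083550 ranked 44284 and 54368 in PreM, against 24434 and 14527 in ofM1 and 21390 and 10181 in wM1. It was stronger still in muscle, with ranks of 6079 and 1305.

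Across all regions, the PreM difference of 1 bat did not recur in the other. Within each bat, PreM was set against the mean of its ofM1 and wM1 on the -log2 rank scale. The SD over regions was 0.66 in bat 1 and 0.54 in bat 3. Between the bats these differences had a Pearson correlation of -0.0448 over 58302 regions, as a description, since regions of 1 library share its preparation. The PreM difference of bat 1 had a correlation of 0.279 with the ofM1 difference of bat 3, and of -0.230 with that of wM1. The corresponding values were -0.244 for ofM1 with ofM1 and 0.0865 for wM1 with wM1.

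**Figure D4:**
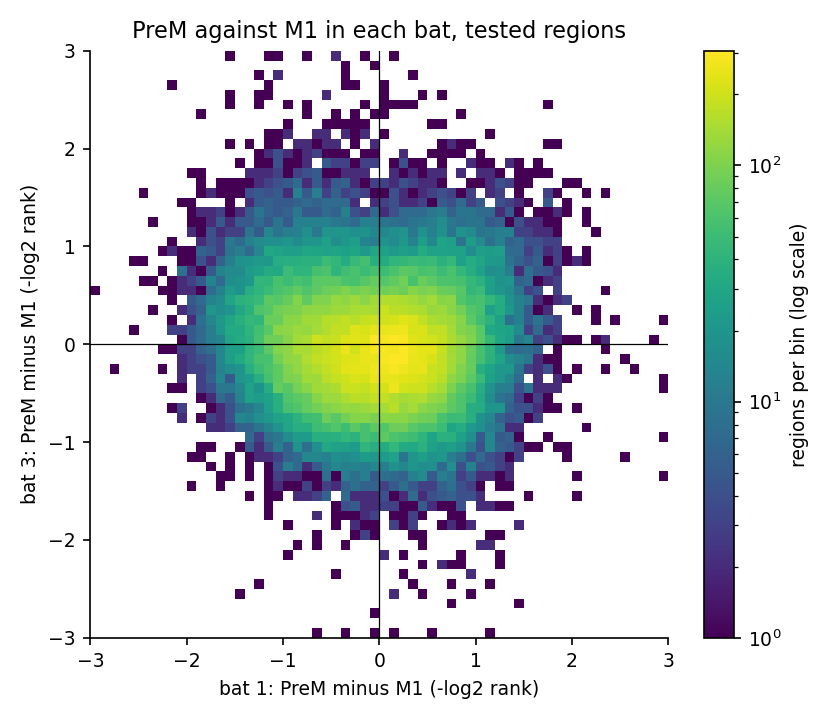
Difference between PreM and the mean of both M1 libraries in bat 1 (horizontal axis) and bat 3 (vertical axis), in -log2 rank, for 58302 tested regions. Colour gives regions per bin on a log scale, and values beyond the axes are drawn at their edge. The cloud shows no slope, and the correlation is -0.0448.

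Regions far ahead in PreM of bat 1 were the exception. PreM was at least 2-fold ahead of ofM1 and wM1 at 1224 regions of bat 1, and PreM of bat 3 ranked them best of its 3 areas in 51.3%, against 32.4% of all tested regions. In the other direction, 1024 regions were 2-fold ahead in PreM of bat 3, and PreM of bat 1 ranked them best in 39.0%, against 40.3% of all. Regions 2-fold behind did not recur. Of 2499 such regions of bat 1, PreM of bat 3 ranked last in 20.4% and ofM1 in 60.9%, against 38.3% and 29.1% of all. Of 762 such regions of bat 3, PreM of bat 1 ranked last in 33.7%, against 42.1% of all.

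The PreM library of bat 1 also differed from M1 by scaffold. Over the 18 scaffolds with at least 500 tested regions, the median PreM difference ran from -0.68 on NW_023416289.1 to 0.28 on NW_023416285.1 in bat 1, and from -0.11 to 0.05 in bat 3. The ofM1 library of bat 1 ran the opposite way, from -0.27 to 0.58 on the same 2 scaffolds, so that bat 1 separated these libraries by scaffold more than bat 3 did. The share of regions with both PreM ranks ahead followed, from 1.98% on NW_023416289.1 to 9.86% on NW_023416286.1. With each scaffold set to its own median, the correlation between the bats was -0.0317. What part these shifts have in the counts of regions was not tested.

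**Figure D5:**
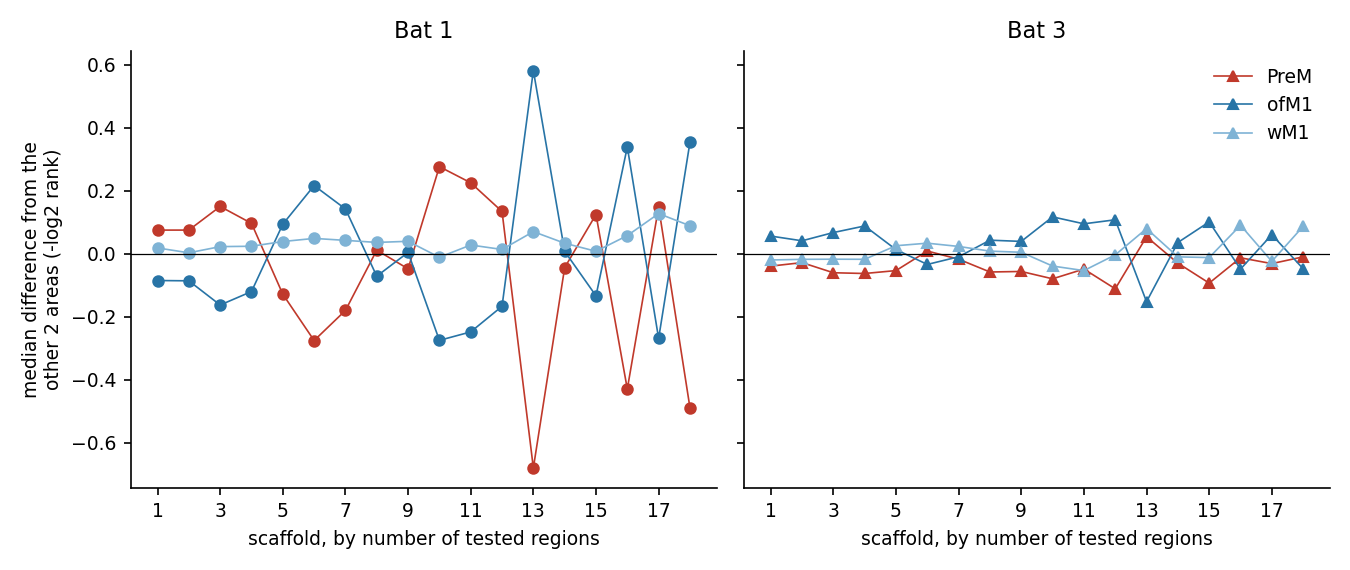
Median difference of each motor area from the other 2 areas of its bat (-log2 rank) on 18 scaffolds, in order of their number of tested regions, for bat 1 (left) and bat 3 (right). PreM of bat 1 spans -0.68 to 0.28 and ofM1 mirrors it, while PreM of bat 3 spans -0.11 to 0.05.

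The strongest intervals of PreM were no more alike between the bats than those of PreM and M1 were. The 50000 strongest intervals of both PreM libraries had a Jaccard index (shared bases over bases covered by at least 1 list) of 0.591. PreM with an M1 library of the other bat averaged 0.594 ± 0.0332 (SD, n = 4 pairs). The difference of -0.00339 lay within the -0.0308 to 0.0316 of the other choices (exact permutation within animals, 2-sided p = 0.889). For the ofM1 pair the same difference was -0.0308 and for the wM1 pair 0.0274.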

How the data were processed

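The authors deposited 1 narrowPeak list per ATAC-seq library, holding fold enrichment (a ratio over background) and -log10 p per peak. The submitters' processing notes name Bowtie2 and MACS2. They give no genome build, and it is not given in any source used here. Every motor list ends at 300000 rows. Positions are printed 1-based, with starts 1 above those in the lists and ends unchanged.

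Rows with the same interval were collapsed, keeping the highest fold and -log10 p. For the rank test, lists were cut at 150000 intervals, with rank 150001 for no interval. Regions strong in at least 2 libraries were tested with limma 3.58.1 (R 4.3.3, 1 term per area, trend, robust, Benjamini-Hochberg). A check of the fit on simulated data took the 6 libraries as independent, which libraries of 1 bat are not. Overlaps used bedtools 2.31.1 and Python 3.11.15. Replicate numbers name the animal, so they pair libraries. Spearman's rho of ranks was 0.743 to 0.898 within an animal and 0.664 to 0.798 between animals. Named regions are the 12 per direction with the widest gap between the nearest PreM and M1 ranks, since none passed the test. Gene lists were not applied, because the RefSeq gene table used here gives no scaffold. Comparisons, panels and lists were chosen with earlier results of these data known. RNA-seq was not used here.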

Additional observations from a re-analysis of the deposited data

Results flagged for a closer look

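In 2 of 19 sets of 4 M1 values, 1 library stood far from the other 3. The share of the liver panel among the 150000 strongest intervals was 12.4% in PreM of bat 1 and 1.39% in PreM of bat 3, against 9.49% in ofM1 of bat 1 and 1.14% to 2.15% in the other M1 libraries. The share of the testis panel was 1.90% and 1.45% in PreM, against 2.97% in ofM1 of bat 1 and 0.913% to 0.948% in the other M1 libraries. Chance marks about 1 in 20 such sets if the 4 values are independent. Here they are 2 areas of the same 2 bats, and the sets share libraries, so that rate is only a guide.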

How the results depend on the processing

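The counts of 0 regions strong in 1 area and without a peak in the other depended on the limits. For PreM and M1 they were 23 and 8 with the 100000 strongest, 2575 and 1084 with peaks of any rank, and 12 and 133 with an overlap of at least 0.5 of a region required; PreM only ranged from 0 to 10 when each library was left out (10 without PreM of bat 1). Leaving out each library gave 839 to 3668 regions strong in PreM and not in M1 (3175 without PreM of bat 1 and 3668 without that of bat 3), and 607 to 2786 for the converse (1805 without PreM of bat 1, 2786 without that of bat 3, 745 without ofM1 of bat 3 and 910 without wM1 of bat 1), where fewer libraries have to meet the condition.

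In limma, the replicate block left 0 regions called in either direction. With the block and log2 fold enrichment it called 2 higher and 2 lower in PreM. Without wM1 of bat 1, 2 were higher, and the range over libraries left out was 0 to 2. No region was called with lists of 100000, other filters, normal scores, unblocked log2 fold, 2 groups or regions built from strong intervals. The difference in Jaccard index turned to 0.00344 with 150000 intervals and ranged from -0.0135 to 0.0111 over M1 libraries left out, positive without wM1 of bat 1. The striatal difference was 0.0163 points among the 50000 strongest and 5.004 with any peak, and 2.19 to 3.19 over libraries left out. The cerebellar one was 0 and 2.14, and that of auditory cortex 0.124 among the 50000 strongest. Over libraries left out, liver ranged from -2.12 to 8.89 (-2.12 without PreM of bat 1) and muscle from -0.951 to 1.96 (-0.951 without PreM of bat 3). The cause of these shifts was not tested. Counts without striatal regions, regions strong on 1 side, the division by striatal strength and values per scaffold were added after seeing the data.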
